A study of Acyrthosiphon pisum with 15 samples.

Results

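In the pea aphid, Acyrthosiphon pisum, 120 gene models were chosen because they stood higher in winged than in wingless asexual females of every clone, while winged and wingless males had about the same level. They were taken from the 20657 gene models of the deposited table by 3 conditions. The mean normalised count over the 6 male libraries had to be at least 50. The mean winged minus wingless difference in males had to lie between −0.5 and 0.5 on the log2(normalised count + 1) scale. Of the 9402 gene models that met both male conditions, the 120 with the largest score were kept, the score being the smallest of the 3 clones' winged minus wingless differences in asexual females. All 120 also passed the filter for testing.

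Wing form in this species has a different basis in each sex. In asexual females, which bear live young without mating, 1 genotype gives winged or wingless daughters depending on cues such as crowding of the mother. In males the form is inherited through a locus on the X chromosome. Winged adults carry wings and indirect flight muscle and disperse between plants, and the sexual, egg-laying females are wingless. None of the 120 identifiers was found in the gene table used here, so no member is given a gene name or a role.

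RNA came from whole bodies of 30 pooled adults per library, and each of 3 clones (F1, I18 and BK11) gave 1 library per morph. Winged and wingless asexual females were 2 days old and lived under 16 h light and 8 h dark at 18 °C. Sexual females, 2 to 6 days old, and winged and wingless males, 2 days old, lived under 13 h light and 11 h dark at 15 °C. Clones served as the replicates (n = 3 per morph), so each spread holds both genotype and preparation. In whole bodies, fewer cells of a kind and less RNA per cell cannot be told apart.

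The libraries held 28721904 to 75066116 reads, and 3 reads corresponded to a normalised count of 1.63 to 5.95. Marker levels were compared among libraries. A set of 119 gene models at 200 or more in every male library and at 5 or less in every asexual female library was nearly silent in sexual females, where its median was 0% of the male mean for F1, 0.0447% for I18 and 0.111% for BK11. None of the 120 members was in that set. Another 65 gene models, at 1000 or more in every asexual female library and at 30 or less in the F1 and I18 sexual females, had in the wingless males of I18 a median of 12.6% of the asexual level, against 0.893% to 2.02% in the other male libraries. The BK11 sexual females, at 1.56%, lay within the range of those other male libraries, and the choice of these gene models fixes low values in the F1 and I18 sexual females.

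The members differed between winged and wingless asexual females by a median of 2.57 on the log2 scale, with a range of 1.97 to 5.83. These values chose the members and are a description without a test. The difference reached 8-fold for 37 members and 32-fold for 3. The median normalised count of the 120 was 208, 183 and 177 in winged asexual females of F1, I18 and BK11, against 30.6, 33.7 and 20.7 in the wingless ones. For 114 members, or 95%, every winged library lay above every wingless one, which held for 14.6% of all 20301 gene models tested and for 16.3% of those that met both male conditions. The score rested on I18 for 59 members, on F1 for 39 and on BK11 for 22, as the clone with the smallest difference.

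**Figure D1:**
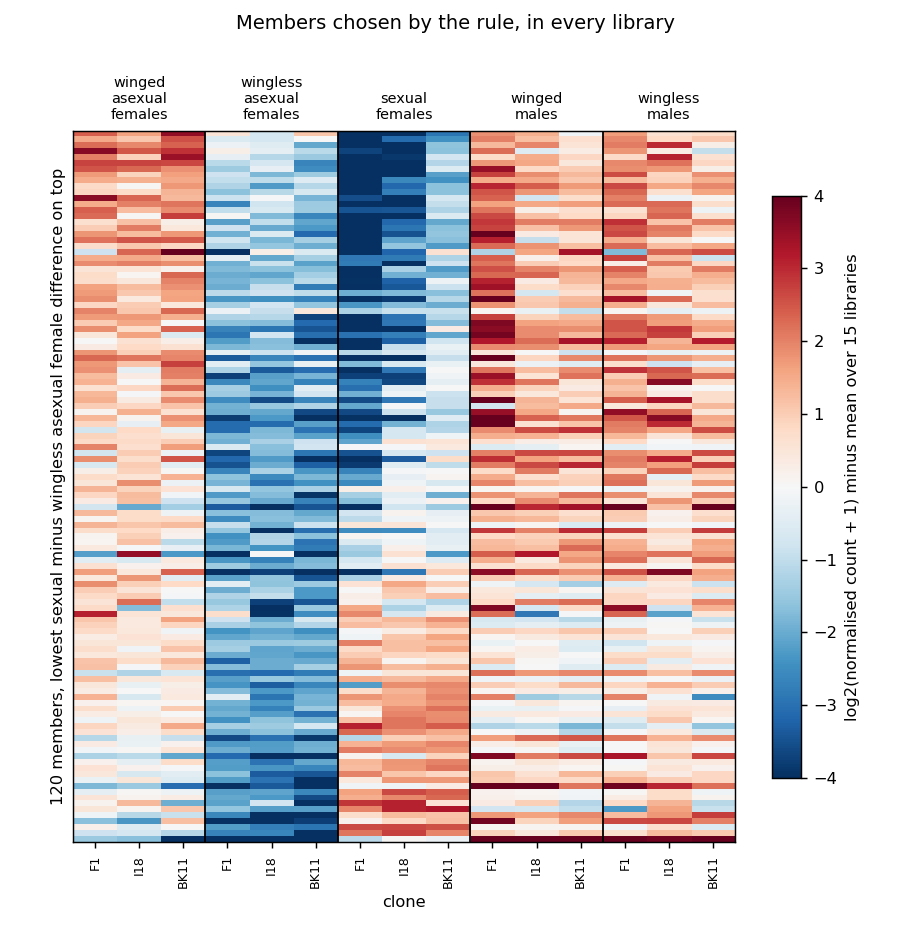
Each row is 1 of the 120 members and each column 1 of the 15 libraries, grouped by morph. Colour is log2(normalised count + 1) minus the row's mean over all libraries, and rows run from the lowest sexual minus wingless asexual female difference (top) to the highest. Wingless asexual females are low in nearly every row, males are high in most, and sexual females change from low at the top to high at the bottom.

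The member with the largest score, ACYPI087509-RA, had normalised counts of 212, 193 and 167 in winged asexual females of F1, I18 and BK11, against 3.22, 5.95 and 4.49 in wingless ones. The groups lay far apart, and the difference was 5.13 ± 0.91 (log2, SE from a spread shared by all 5 morphs). In males it had 736, 78.5 and 164 in the winged form, against 195, 148 and 118 in the wingless form. The winged F1 males stood above all others and the winged I18 males below all others, so the male forms overlapped around a mean difference of 0.49 ± 0.91.

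ACYPI061655-RA, second by score, had 1385, 582 and 2252 in winged asexual females of F1, I18 and BK11, against 26.9, 31.7 and 9.89 in wingless ones. Its difference was 5.83 ± 1.17 (log2, SE), the widest mean difference among the members. Winged males had 5286, 2201 and 1563, against 2558, 5796 and 1326 in wingless males, a difference of −0.04 ± 1.17. The highest male value thus lay in the wingless I18 library and the next in the winged F1 library.

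At the other end of the list, the member with the smallest score was ACYPI010169-RA, with 1279, 1469.6 and 976 in winged asexual females, against 290.2, 425 and 245 in wingless ones. Its score was 1.79, set by I18. The next gene model, ACYPI34384-RA, was left out at a score that also rounds to 1.79, with 54.4, 40.04 and 52.7 against 15.0, 3.97 and 1.80. The limit therefore falls in a continuum and parts no natural group.

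Few reads stood behind some of the wingless values. In 10 members no wingless asexual female library held more than 3 reads, although none of the 120 was at 0 in all 3 of these libraries. Such members include the least abundant one over all libraries, ACYPI084368-RA, with 14.3, 5.84 and 23.9 in winged asexual females, against 0, 0 and 0.899 in wingless ones, the last being 1 read. The next least abundant was ACYPI064100-RA, with 24.3, 20.0 and 59.8 against 3.22, 3.97 and 6.29. The most abundant members were ACYPI004186-RA and ACYPI007653-RA. ACYPI004186-RA had 1546, 3299 and 696 in winged asexual females, against 305, 651 and 188 in wingless ones. ACYPI007653-RA had 2824, 2383 and 2112, against 432, 456 and 342. In 25 members at least 1 of the 15 libraries was at 0.

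Because all 3 clones chose the members, the rule was also applied to 2 clones at a time and the difference read in the clone left out. With F1 left out, the 120 gene models chosen by the other clones had a median difference of 2.27 in F1, and 110 of them were at least 2-fold higher in winged females. With I18 left out the median in I18 was 2.20, with 102 at least 2-fold higher. With BK11 left out the median in BK11 was 2.43, also with 102. Over the 9402 gene models that met both male conditions, the medians in these clones were −0.08, −0.06 and −0.14, and 16.5%, 14.3% and 12.3% were at least 2-fold higher. In all 3 cases some gene models went the other way in the clone left out, down to −1.30 in F1, −3.16 in I18 and −0.86 in BK11. The lists so chosen shared 90, 82 and 82 gene models with the 120, so they are no independent choice. Their values are a description without a test. The male libraries of the clone left out still entered the male conditions.

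The male side of the rule holds for the mean over clones and less well within them. The median winged minus wingless difference of the members in males was 0.05, with 64 members above 0 and 56 below. In single clones the difference ran from −1.32 to 2.44 in F1, from −2.37 to 1.85 in I18 and from −1.27 to 1.73 in BK11. It exceeded 2-fold in at least 1 clone for 42 members, and stayed between −0.5 and 0.5 in all 3 clones for 24. The sign differed among clones for 90 members. These counts were not made over the other gene models that met the male conditions, so they mark no trait particular to the members. In F1, 21 members were more than 2-fold higher in winged males, and all 21 of these were lower in winged than in wingless males of I18. The window on the mean ties these values to each other, so the opposite signs are in part built in. Of these 21 members, 13 belonged to those at or below the wingless asexual level in sexual females, described further on. The median SE of a member's male difference was 0.68, from a spread shared by all 5 morphs, sexual females included. It is the same for the female difference and is no measure of the males alone. The median SD over clones (log2) was 0.53 in winged and 0.59 in wingless males, against 0.995 in sexual females. Winged and wingless males did not overlap for 1 member on the higher side, against 5.65% of all gene models tested and 3.34% of those that met both male conditions. On the lower side they did not overlap for 3 members, against 6.90% and 4.44%.

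**Figure D2:**
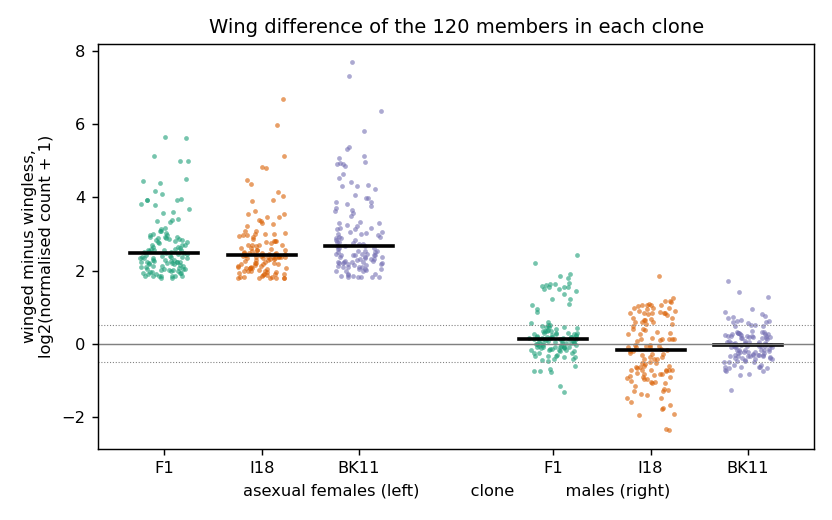
Points are the 120 members, with the winged minus wingless difference in log2(normalised count + 1) on the y axis, for asexual females (left) and males (right) of each clone. Bars are medians and dotted lines mark the window on the male mean. The female medians are 2.47, 2.43 and 2.66 in F1, I18 and BK11. The male medians are 0.13, −0.18 and −0.03, with points up to 2.44 and down to −2.37.

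The male level was, for most members, close to that of winged asexual females or above it. The comparison rests partly on libraries that chose the members, so levels are given without a test. Day length and temperature also differed between males and asexual females, and cannot be told apart from morph here. The male mean on the log2 scale lay at or above that of winged asexual females for 69 members, between the asexual forms for 49, and at or below wingless asexual females for 2. It was within 2-fold of the winged asexual level for 73. All 6 male libraries lay above all 3 wingless asexual female libraries for 104 members, or 86.7%, against 28.5% of all gene models tested and 30.0% of those that met both male conditions. The floor on the male mean works toward such counts. All 6 male libraries lay above all winged asexual female libraries for 21 members, or 17.5%, against 21.6% of all gene models tested and 21.7% of those that met both male conditions. They lay below them for 14, against 16.4% and 25%, and below all wingless asexual female libraries for 0, against 21.5% and 31.9%.

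A few members were chiefly male by level. ACYPI28620-RA had 2764, 2933 and 2442 in winged males and 3034, 1637 and 2457 in wingless males of F1, I18 and BK11, against 39.3, 34.2 and 4.35 in winged asexual females. Its wingless asexual values were 4.30, 0 and 0, or 4 reads in all. ACYPI33569-RA had 569, 523 and 135 in winged males and 449, 256 and 141 in wingless males, against 7.87, 10.01 and 2.72 in winged asexual females, and 1 read in all in wingless ones. Altogether 13 members stood at least 4-fold higher in males than in winged asexual females. The 2 members with males at or below the wingless asexual level were ACYPI004365-RA and ACYPI005705-RA. ACYPI004365-RA had 477, 376 and 232 in winged males and 484, 344 and 389 in wingless males, against 387, 238 and 626 in wingless asexual females. Only its winged asexual libraries, at 1782, 946 and 2227, stood above the rest.

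Sexual females, the wingless egg-laying morph, took no part in the choice of members and divided them. The sexual female mean lay at or below that of wingless asexual females for 41 members, between the asexual forms for 41, and at or above that of winged asexual females for 38. Where it was at or below, the members' median normalised count was 13.4 in sexual females, against 242 in winged and 37.1 in wingless asexual females. For those in between, the medians were 78.5 in sexual females, against 145 in winged and 24.0 in wingless asexual females. Where it was at or above, they were 554 in sexual females, against 293 in winged and 54.1 in wingless asexual females. These 3 sets are cut from a range and are no natural classes. Sexual females also differed from asexual females in day length and temperature, which cannot be told apart from morph. Taking the F1 and I18 sexual females alone, 47, 35 and 38 members fell into them.

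Counted by library, all sexual females lay above all wingless asexual females for 53 members, or 44.2%, against 28.9% of all gene models tested and 36.4% of those that met both male conditions. They lay below them for 7, against 25.1% and 27.0% in the same sets. All sexual females lay above all winged asexual females for 26 members, against 27.6% and 35.6%, and below them for 58, against 23.2% and 21.3%. As the members were chosen to be high in one of these morphs and low in the other, these shares are not a finding about sexual females.

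**Figure D3:**
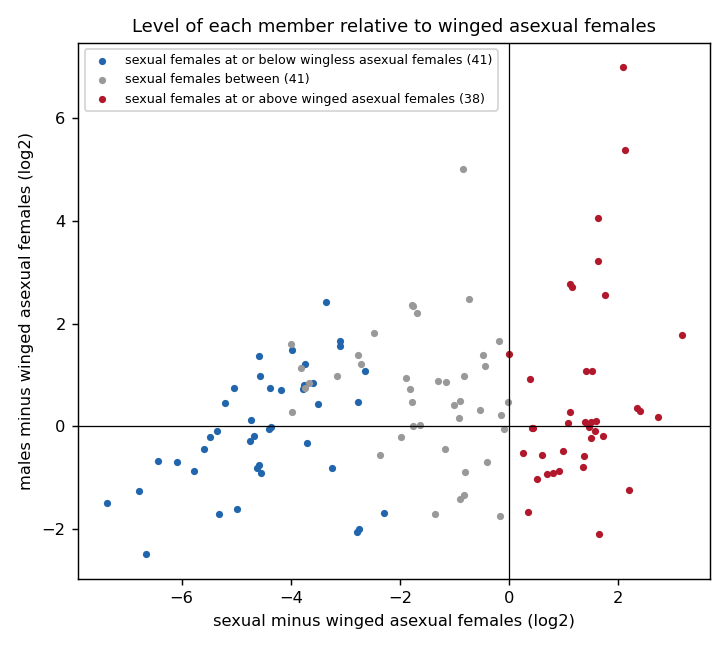
Each point is 1 of the 120 members. The x axis gives sexual minus winged asexual females and the y axis males minus winged asexual females, both in log2(normalised count + 1) averaged over clones, with lines at 0. Sexual females reach from −7.37 to 3.17, while males stay nearer 0, with 73 members within 2-fold.

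Sexual females were tested against all males, a contrast with no asexual female library, kept under the same day length and temperature. The rule acts on its values through the floor and the window in males. The floor has no counterpart in sexual females, so it works toward lower calls, also among the gene models that met both male conditions. The asexual female libraries entered only the estimate of the spread. By limma, 74 members were lower in sexual females and 22 higher, or 61.7% and 18.3%. A fit on sexual females and males alone called 73 lower and 23 higher. Of all 20301 gene models tested, 36.8% were lower and 28.9% higher. Of the 9396 that met both male conditions and were tested, 31.5% were lower and 41.3% higher. These gene models were not matched to the members for female level. Members low in all females passed the floor only through males, so part of the gap between the shares is built in. The median log2 fold change was −1.94 over the members, against −0.57 over all gene models tested and 0.21 over those that met both male conditions. Clones differed in this, with member medians of −3.26 in F1, −1.23 in I18 and −1.26 in BK11. Over all gene models tested the medians were −0.66, −0.33 and −0.46. All 74 and all 22 had the same sign in each of the 3 clones, which a call with clones as replicates makes likely in itself. Sexual females lay below every male library for 70 members, against 31.1% of all gene models tested and 28.4% of those that met both male conditions. They lay above every male library for 21, against 27.0% and 40.4%. Of the 24 members that did not pass, the log2 fold change lay between −1.59 and 1.99. The age range, wider in sexual females, cannot be told apart from the morph here.

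The lower calls were large. Among the 74, 53 were at least 8-fold lower in sexual females, and their median log2 fold change was −4.14. Among the 22 higher calls, 2 were at least 8-fold higher and the median was 1.64. Sorted by 1 log2 unit, from −6 to 4, the bins held 16, 24, 13, 7, 15, 10, 11, 18, 4 and 2 members, a broad spread that was not tested for separate groups. By share, the bins starting at −6, −5 and −4 held 13.3%, 20.0% and 10.8% of the members. They held 1.76%, 4.14% and 6.55% of the gene models that met both male conditions, and 2.36%, 4.64% and 7.51% of all tested. The bin starting at 3 held 1.67% of the members, against 1.82% and 3.20%, so the members were not in excess there. No member lay beyond −6 or 4, where both other sets had some gene models.

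**Figure D4:**
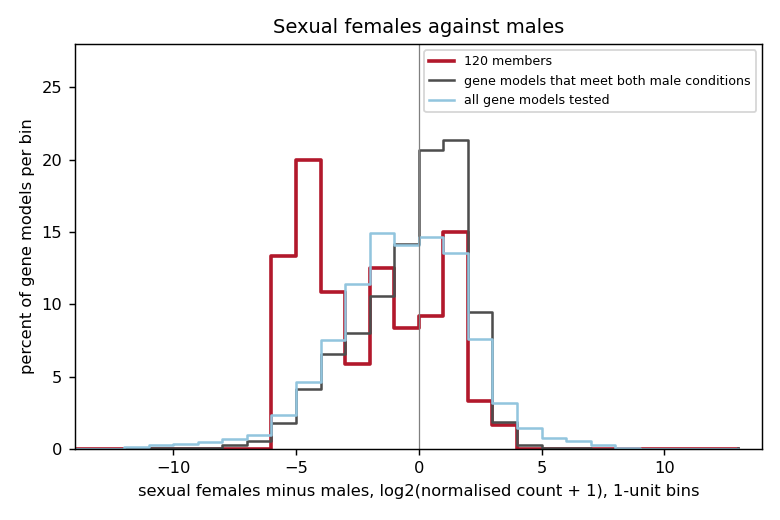
The x axis is the sexual female minus male difference in log2(normalised count + 1), in bins of 1 unit, and the y axis the percent of gene models in each bin, for the 120 members, the gene models that met both male conditions and all gene models tested. The members peak between −5 and −4, with 20.0% there, against 4.14% and 4.64% in the other sets.

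ACYPI004272-RA had the lowest fold change against males. It had 1.87, 26.3 and 76.2 in sexual females of F1, I18 and BK11, against 1981, 1283 and 794 in winged males and 1501, 711 and 909 in wingless males. The highest sexual female value lay far below the lowest male value, with a log2 fold change of −5.94 ± 0.79 (SE, limma adjusted p = 1.8e-05). Asexual females had 411, 247 and 800.1 in the winged form, against 104, 49.6 and 108 in the wingless form, so sexual females were at or below the wingless asexual level in each clone.

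ACYPI005299-RA had 3.75, 3.20 and 33.2 in sexual females, against 901, 689 and 232 in males of the winged form and 805, 385 and 422 in those of the wingless form (log2 difference −5.88 ± 0.70, limma adjusted p = 7.4e-06). It was also the member furthest below wingless asexual females, which had 368, 155 and 554. No sexual female library overlapped any other. ACYPI007699-RA, next by that measure, had 2.81, 30.1 and 48.2 in sexual females, against 175, 159 and 267 in wingless asexual females. Its males had 1056, 601 and 421 in the winged form and 994, 457 and 556 in the wingless form, and it fell in sexual females against males by 5.15 ± 0.66 on the log2 scale (limma adjusted p = 1.4e-05).

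ACYPI082183-RA had 0, 10.9 and 6.51 in sexual females, against 377, 166 and 212 in males of the winged form and 942, 45.3 and 512 in those of the wingless form (log2 difference −5.86 ± 0.93, limma adjusted p = 8.9e-05). It was low in all females, with 11.4, 4.17 and 7.07 in winged asexual females, against 2 reads in all in wingless ones. Its place among the members thus rests on few reads, unlike that of ACYPI004272-RA. The least abundant members were low in sexual females too. ACYPI084368-RA had 0, 1.28 and 2.60 there, or 6 reads in all, against 167, 12.0 and 17.7 in males of the winged form and 35.04, 66.0 and 20.8 in those of the wingless form (log2 difference −4.15 ± 0.79, limma adjusted p = 0.00043). ACYPI064100-RA had 0, 0.641 and 12.4, below all male libraries, which lay between 18.6 and 129 (−3.95 ± 0.79, limma adjusted p = 0.00062). The male means of ACYPI084368-RA and ACYPI064100-RA, 53.0 and 50.7, lay just above the floor of 50. ACYPI082183-RA stayed below 50 in every female library. Gene models so low in females become members only through their male level, so these lower calls are in part built in. The same holds for others. ACYPI20176-RA had means of 29.3 in winged asexual, 0.658 in wingless asexual and 1.95 in sexual females, against 73.4 in males. How many members this concerns was not counted.

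Both members of the largest scores also fell in sexual females. ACYPI087509-RA had 0.937, 1.28 and 22.1 in sexual females, below every male library (−5.26 ± 0.78, limma adjusted p = 5.2e-05). ACYPI061655-RA had 11.2, 58.9 and 893 in sexual females, also below every male library (−4.94 ± 1.01, limma adjusted p = 0.00074). In both, the BK11 sexual females stood far above those of F1 and I18.

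The most abundant members were lower in sexual females by less. ACYPI007653-RA had 276, 934 and 1345 in sexual females, against 4160.3, 3918 and 2926 in males of the winged form and 3807, 2169.6 and 3599 in those of the wingless form (log2 difference −2.25 ± 0.39, limma adjusted p = 0.00018). ACYPI004186-RA had 981, 1305 and 1101 in sexual females, against 3468, 3052 and 4945 in males of the winged form and 3894, 1899.8 and 4432 in those of the wingless form (log2 difference −1.63 ± 0.47, limma adjusted p = 0.0073). This last call was lost without clone F1 (limma adjusted p = 0.118). It was also lost without the I18 wingless males and the BK11 males and sexual females (limma adjusted p = 0.0579).

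ACYPI005705-RA had the highest fold change among the members that rose in sexual females. It had 4865, 2454 and 3012 in sexual females, against 242, 262 and 155 in males of the winged form and 288, 430.1 and 186 in those of the wingless form (log2 difference 3.73 ± 0.35, limma adjusted p = 1.2e-06). Winged asexual females had 1019.8, 721 and 1588, against 223, 206 and 345 in wingless ones. Males of both forms were thus at the wingless asexual level, and sexual females above every other library.

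ACYPI30949-RA was even among clones in sexual females and winged males, with 2791, 2862 and 2608 in sexual females, against 482, 485 and 479.7 in winged males (2.56 ± 0.28 against both male forms, limma adjusted p = 3.7e-06). Wingless males had 413, 707 and 307. Winged asexual females, at 518, 304 and 439.7, overlapped the males, and wingless asexual females, at 93.5, 65.5 and 58.4, lay below all other libraries. ACYPI066949-RA had 267, 577 and 654 in sexual females, against 39.7, 41.2 and 34.0 in males of the winged form and 13.0, 211 and 35.8 in those of the wingless form (log2 difference 3.43 ± 0.66, limma adjusted p = 0.00047). The wingless I18 males stood at 211, well above the other male libraries. ACYPI069475-RA, the member with sexual females furthest above winged asexual females, had 243, 367 and 214 in sexual females, against 30.0, 33.4 and 23.9 in winged asexual females. Against males, at 101, 74.5 and 113 in the winged form and 84.4, 132 and 113 in the wingless form, it rose by 1.39 ± 0.43 (log2, limma adjusted p = 0.012). That call was lost without clone F1 (limma adjusted p = 0.0848), without clone I18 (0.12) and without the I18 sexual females (0.0644).

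The 2 members with the highest male levels relative to winged asexual females were above winged asexual females, and below males, in sexual females. ACYPI28620-RA had 53.4, 115 and 93.7 in sexual females, above its winged asexual values and far below its male ones (−4.89 ± 0.67, limma adjusted p = 2.4e-05). ACYPI33569-RA had 27.2, 26.3 and 37.8 in sexual females and was likewise lower than in males (−3.25 ± 0.62, limma adjusted p = 0.0004). Both were picked for their male level, which works toward lower calls against males. ACYPI004365-RA had 188, 245 and 245 in sexual females and did not pass against males (−0.73 ± 0.36, limma adjusted p = 0.085).

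**Figure D5:**
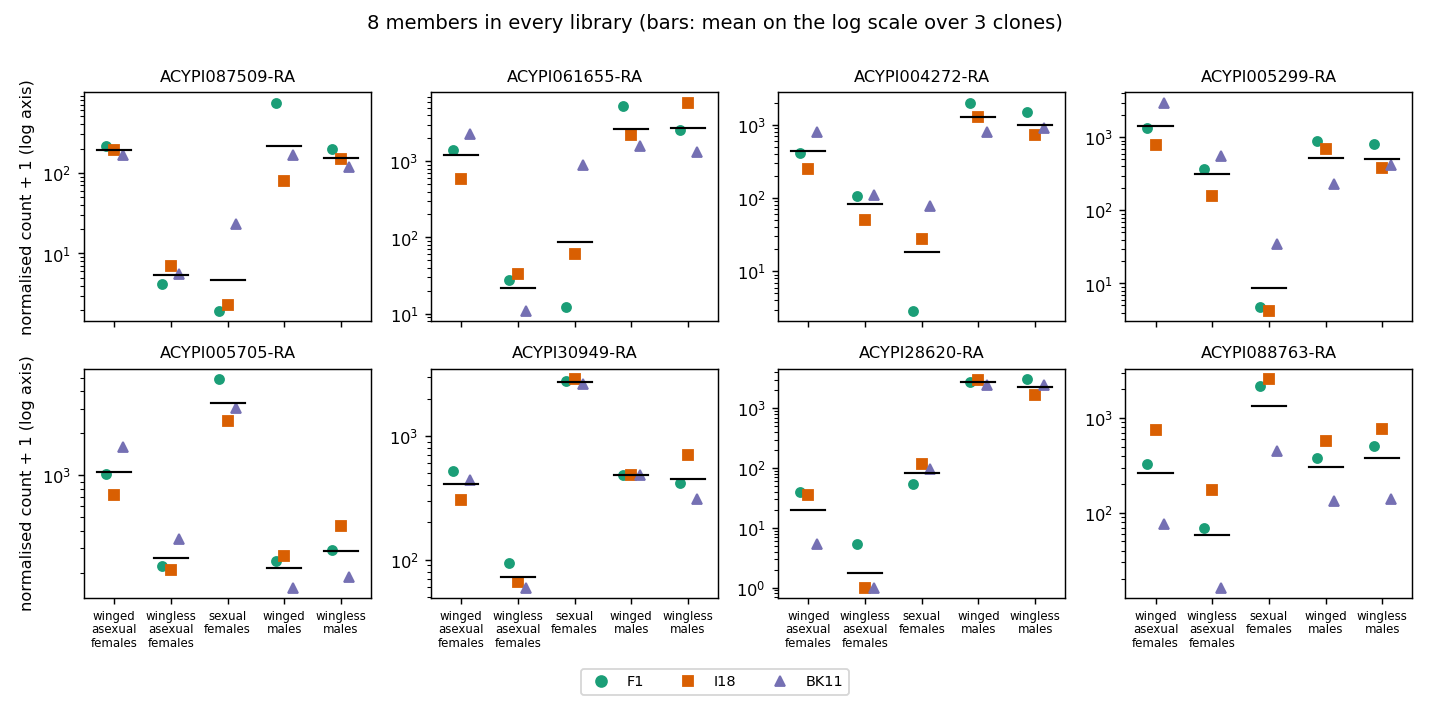
Normalised count + 1 on a log axis for 8 members in all 15 libraries, with 1 point per clone and a bar at the mean on the log scale over the 3 clones of a morph. ACYPI087509-RA, ACYPI061655-RA, ACYPI004272-RA and ACYPI005299-RA are lower in sexual females than in males. For ACYPI061655-RA the sexual female mean lies between those of the asexual forms. ACYPI005705-RA and ACYPI30949-RA are highest in sexual females, ACYPI28620-RA is highest in males, and ACYPI088763-RA is lowest in BK11 within every morph.

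The sexual females were the least even morph for the members. The median SD over clones (log2) was 0.995 in sexual females, against 0.53 in winged and 0.58 in wingless asexual females, and against 0.53 and 0.59 in males of the winged and of the wingless form. Over all gene models tested the sexual females were also the least even, at 0.63 against 0.54, 0.49, 0.42 and 0.60 in the same order. Over those that met both male conditions the values were 0.46 against 0.41, 0.33, 0.24 and 0.36. That sexual females came first is thus not particular to the members, but their distance from the other morphs was wider in the members. The median normalised count of the members in sexual females was 20.6 in F1, 58.6 in I18 and 78.8 in BK11. The F1 sexual females held the lowest of the 3 values for 89 members, or 74.2%. They did so for 45.8% of all gene models tested and for 38.0% of those that met both male conditions.

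The unevenness was greatest among the 41 members with sexual females at or below the wingless asexual level. Their median normalised count in sexual females was 1.87 in F1, 3.84 in I18 and 31.2 in BK11, or a median of 0.656%, 2.14% and 13.0% of the male mean. In the BK11 sexual females the male gene models described above stood at 0.111% of the male mean and the asexual female gene models at 1.56% of the asexual level. Their part in the members' values was not tested. Without that library, 71 members were lower in sexual females than in males and 20 higher, 71 and 19 of them being among the 74 and 22. For the 38 members at or above the winged asexual level, the sexual female medians were 368, 523 and 479, with no such gap between clones.

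Clones differed in few members once morph was accounted for. By the limma F test, 5 members passed, or 4.17%, against 7.05% of all gene models tested, a share near the background, and against 5.03% of those that met both male conditions. The count was 1 without clone F1 and 3 without I18 or without BK11. ACYPI088763-RA was the clearest, with clone means over the 5 morphs of 692 (F1), 961 (I18) and 161 (BK11) (limma adjusted p = 4.8e-05). BK11 had the lowest value in every morph, from 445 against 2184 and 2549 in sexual females to 15.3 against 67.7 and 175 in wingless asexual females. Without BK11 the call was lost (limma adjusted p = 0.222). Against males, at 376, 576 and 132 in the winged and 506, 764 and 139 in the wingless form, sexual females did not pass (1.99 ± 0.90, limma adjusted p = 0.067). With clone as a block they did (limma adjusted p = 5.28e-05).

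ACYPI25707-RA had clone means over morphs of 10.9 (F1), 124 (I18) and 334 (BK11) (limma adjusted p = 0.00027). F1 was lowest in every morph, with 23.6 against 218 and 875 in winged asexual females, and 1.07 against 49.6 and 27.9 in wingless ones. In F1 males it had 17.9 in the winged and 11.7 in the wingless form. Without F1 the call was lost (limma adjusted p = 0.42). In sexual females it had 0, 3.84 and 65.1, and its call as lower than in males (−3.81 ± 1.60, limma adjusted p = 0.0499) did not hold under 16 of 25 alternatives, where adjusted p reached 0.282.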

How the data were processed

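Per the labels, RNA was taken from whole bodies with phenol and chloroform and sequenced on an Illumina instrument. The authors deposited a signal per gene model and library, in which each count had been scaled by 1 factor for its library and not by length. The submitters' processing notes name DESeq2. For the aligner, counting tool, strand setting, build and annotation, the entry is: not given in the sources used here. Dividing by the value of 1 read gave whole numbers for 100% of values (tolerance 0.001 read), and these recovered reads were used in the count tests.

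Gene models at 10 or more in at least 3 libraries were tested (20301, leaving out 356). The test was limma 3.58.1 (R 4.3.3), with a mean-dependent prior variance, and values entered it as log2(value + 1). One fit of 5 morph means held all 15 libraries, and the clone test added clone. Adjusted p-values (Benjamini-Hochberg) cover all gene models tested, with a threshold of 0.05 that also applies to every call named. Fold changes on this scale understate the change of low values. Errors of log2 differences are SE from this fit, with a spread shared by all 5 morphs and no use of the pairing by clone. The steps were checked on simulated counts. Libraries of a clone are paired by genotype, and their deviations from the morph mean correlated across gene models with r from 0.135 to 0.642.

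Alternatives were pseudocounts of 0.5 and 8, other filters, trimmed mean (TMM) scaling, robust variances, clone as a block, fewer groups, left-out libraries or clones, edgeR 4.0.16 and DESeq2 1.42.0 on the recovered reads. The 4 libraries in doubt, taken from an earlier reading of these data, were the I18 wingless males, the winged and the wingless males of BK11, and the BK11 sexual females. The members, tests and alternatives were chosen with earlier results of these data known.

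Named gene models were taken by rank: the largest scores, both sides of the limit, the largest called fold changes in each direction between sexual females and males, the smallest clone p-values, the highest and lowest levels, and the most extreme sexual female or male levels relative to asexual females. A gene table for assembly pea_aphid_22Mar2018_4r6ur_v2 held 61 of the 20657 identifiers and 0 of the 120 members, so lists by product name could not be applied.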

Additional observations from a re-analysis of the deposited data

Results flagged for a closer look

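The male libraries of the named members and of the members' median level were searched for a single library far from the other 5, which chance gives in about 1 of 20 such groups. Of 21 groups, 1 had such a library. ACYPI28620-RA stood at 1637 in the wingless I18 males, against 2442 to 3034 in the other male libraries. That library is also the one in which asexual female gene models stood at 12.6% of their asexual level, and the part of this in the value was not tested.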

How the results depend on the processing

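Between sexual females and males, the members' counts kept within 1.5 times under all 25 alternatives, with 18 to 25 members higher and 57 to 75 lower and a median log2 fold change from −2.55 to −1.51. The lowest count of lower members, 57, came without clone F1. The fit with a replicate block for clone gave 25 members higher and 75 lower, and changed the call of 1 named member, ACYPI088763-RA. Over all gene models, edgeR called 5785 higher and 7206 lower, and 24 and 70 of the members. For clones, DESeq2 called 8 members, and leaving out a library or a clone gave 1 to 6. Over all gene models the clone calls numbered 887 with a filter of 50, 2522 with DESeq2, 860 without the 4 libraries in doubt, and 374, 858 and 610 without F1, I18 and BK11, against 1431. The rule itself kept 61 of its 120 members with a male window of 0.25 and 77 with a window of 1, and 82 to 113 under its other alternatives. TMM scaling kept 113 and moved the median wing difference of all gene models in asexual females by 0.11. ACYPI088763-RA, which missed the threshold between sexual females and males (limma adjusted p = 0.067), passed it in 6 of 25 alternatives. Reads limit the wingless asexual values of the 10 members at 3 reads or fewer in each of those libraries.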

Other observations

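Some members had nearly the same profile over the 15 libraries. Of 7140 pairs of members, 14 had a Pearson correlation above 0.98 on the log2 scale, against a median of 0.56 over all pairs, as a description across libraries that share morphs and clones. ACYPI25519-RA, ACYPI084950-RA and ACYPI001550-RA, named after their values were seen, formed the closest set, with correlations from 0.996 to 0.998. In winged asexual females ACYPI25519-RA had 166, 517 and 188 in F1, I18 and BK11, ACYPI084950-RA 205, 599.7 and 279.9, and ACYPI001550-RA 112, 384 and 159. In wingless asexual females they had 21.5, 63.5 and 25.2, then 39.8, 99.2 and 43.1, then 13.97, 55.6 and 24.3. All 3 were highest in I18 among asexual females of both forms. Whether these gene models share reads or belong to 1 transcript was not tested.

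The choice by score set aside many gene models with an equally large female difference. The score of the last member was reached by 325 gene models in all, of which 124 had a male mean below 50, 53 were higher in winged than in wingless males by more than the window allows, 28 were lower by more than that, and 120 were the members.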
